A study of Rattus norvegicus with 11 samples.

Results

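The clustered protocadherin genes of the rat were chosen by gene symbol alone, as every entry whose symbol begins with Pcdha, Pcdhb or Pcdhg followed by a number, a subfamily letter or c. The rule found 37 of the 42172 gene entries, with 2 in the alpha cluster, 19 in the beta cluster and 16 in the gamma cluster. No measured value entered the rule, but the family was proposed with results of these data already known. Polyadenylated RNA had been sequenced from primary hippocampal neurons of CD (Sprague Dawley) rats at day 7 in vitro. The cultures expressed H1.4 CFT, a mutant of the linker histone H1.4 with a frameshift tail at its C-terminus (n = 4 libraries), exogenous wild-type H1.4 (WT H1.4, n = 4) or GFP as the control (n = 3). H1 linker histones sit on nucleosomes at the entry and exit of the DNA and favour compact chromatin. The promoter, the delivery and the species of the constructs are not given in the sources used here. Libraries are named by group and replicate number, which ran 1 to 4 for H1.4 CFT and WT H1.4 and 2 to 4 for GFP. The study calls the libraries biological replicates of cultures, and no label says whether they came from separate animals.

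Clustered protocadherins are cadherin-like adhesion molecules on the surface of neurons. Each neuron chooses a few promoters from the clusters, and the resulting combination of proteins lets its branches tell their own membranes from those of other neurons. In the alpha and gamma clusters each variable first exon is spliced to constant exons shared by the whole cluster, whereas each beta gene is a single exon that encodes a whole protein without the shared tail. Promoter choice depends on CTCF and cohesin, which loop the chosen promoter to a distant enhancer, and on DNA methylation and repressive chromatin. Most of these promoters carry a conserved sequence element with a CGCT core that CTCF can bind.

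Of the 37 entries, 21 had at least 1 count and 20 passed the filter on low counts and were tested: Pcdha4, 18 beta genes and Pcdhga1. Pcdhb1 had 12 counts in all 11 libraries together and was below the filter, with 3, 4, 0 and 2 in H1.4 CFT libraries, against 0, 0, 1 and 0 in WT H1.4 libraries and 2, 0 and 0 in GFP libraries. The other 16 entries had 0 counts in every library. The 3 C-type genes in the files (Pcdhac1, Pcdhgc3 and Pcdhgc5), the isoforms at the end of the alpha and gamma clusters that many neurons share, were among those at 0. Counts assigned to genes came to between 16748377 and 18264770 in H1.4 CFT libraries, 14205621 and 18846492 in WT H1.4 libraries and 12070941 and 16923850 in GFP libraries. In single libraries the tested beta genes had between 10 and 651 counts.

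The promoter windows are shown first, because most beta genes share a short stretch in them. RefSeq's table of the GRCr8 build held a window from 250 bases before to 50 bases after the start for 32 member genes (33 windows, of which 17 were beta, 15 gamma and 1 alpha). The 4 letters CGCT, searched on both strands, were in 15 of 17 beta windows (88.2%), 11 of 15 gamma windows (73.3%) and 60.9% of all 33469 windows. The 9-base word shared by the most beta windows, found from these sequences and therefore no test, was GGTGGCGCT, which contains CGCT. It was in 14 of 17 beta windows (82.4%), 0 of 15 gamma windows, 0 of 1 alpha window and 139 of the 33436 windows of other genes (0.416%). In 12 of the 14 it began between 40 and 100 bases before the annotated start, and in Pcdhb6 and Pcdhb8 it began 229 and 208 bases before it. Below are 26 bases around the word, with the word in capitals, on the plus strand of rat chromosome 18, build GRCr8. The first 6 belong to genes that rose in H1.4 CFT versus WT H1.4, and the other 6 to genes that did not pass that test.
Pcdhb3 (chr18:29285606-29285631): gaacgcatGGTGGCGCTgttgactaa
Pcdhb4 (chr18:29292213-29292238): ggacgcttGGTGGCGCTgcaggctaa
Pcdhb5 (chr18:29302406-29302431): gaacgcagGGTGGCGCTgcaggctaa
Pcdhb10 (chr18:29391780-29391805): ggacgcgtGGTGGCGCTgtctactaa
Pcdhb12 (chr18:29413650-29413675): ggacgcttGGTGGCGCTgcaggctaa
Pcdhb19 (chr18:29478766-29478791): agacacatGGTGGCGCTgcaggataa
Pcdhb7 (chr18:29329000-29329025): ggacgcagGGTGGCGCTgcaggctaa
Pcdhb8 (chr18:29339260-29339285): ggacacacGGTGGCGCTgcagtctaa
Pcdhb9 (chr18:29379250-29379275): agacacagGGTGGCGCTgcaggctaa
Pcdhb6 (chr18:29320154-29320179): gtacacacGGTGGCGCTgcagtctaa
Pcdhb20 (chr18:29485812-29485837): agacacatGGTGGCGCTgtaggataa
Pcdhb21 (chr18:29492151-29492176): agtcacatGGTGGCGCTgcaggatag
The 14 stretches formed 13 distinct sequences, and the 9 bases after the word were the same in 6 of them (Pcdhb4, Pcdhb5, Pcdhb7, Pcdhb9, Pcdhb12 and Pcdhb14). Of these, Pcdhb4, Pcdhb5 and Pcdhb12 rose in H1.4 CFT versus WT H1.4, and Pcdhb7, Pcdhb9 and Pcdhb14 did not pass. Of the 14 tested beta genes whose window held the word, 6 rose in H1.4 CFT versus WT H1.4 and 8 did not pass. Pcdhb16l, which rose, and Pcdhb6l, which did not pass, had windows without it. The Pcdhb6l window ends in gaacgcatg, the bases that lead into the word in Pcdhb3 together with its first letter. Whether the word follows beyond the end of that window was not tested.

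The windows of the alpha and gamma entries with the most counts are shown whole, because the windows of these clusters lacked the exact 9-base word. The search was for exact matches only, and the Pcdha4 window held the close stretch ggtgtCGCT. Capitals mark CGCT and the 7-letter pattern AGNNGGC, part of the CTCF core, on either strand, with overlapping matches joined.
Pcdha4 (chr18:28876919-28877218): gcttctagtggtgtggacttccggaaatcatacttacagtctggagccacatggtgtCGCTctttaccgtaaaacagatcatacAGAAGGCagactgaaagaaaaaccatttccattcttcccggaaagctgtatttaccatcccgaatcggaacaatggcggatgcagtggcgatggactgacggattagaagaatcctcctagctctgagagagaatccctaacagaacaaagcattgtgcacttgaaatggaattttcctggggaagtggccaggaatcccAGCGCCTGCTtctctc
Pcdhga1 (chr18:29738389-29738688): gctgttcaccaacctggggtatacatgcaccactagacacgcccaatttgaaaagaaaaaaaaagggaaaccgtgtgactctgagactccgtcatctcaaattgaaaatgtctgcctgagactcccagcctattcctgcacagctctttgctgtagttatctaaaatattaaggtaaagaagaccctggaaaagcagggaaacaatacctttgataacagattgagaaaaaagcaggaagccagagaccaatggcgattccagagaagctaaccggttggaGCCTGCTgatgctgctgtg
The Pcdha4 window held both patterns, and the Pcdhga1 window held AGNNGGC but not CGCT. In this Pcdhga1 was unlike most of its cluster, since 11 of 15 gamma windows held CGCT. Among the windows of the beta cluster, AGNNGGC was in 2 of 17 (11.8%), against 56.5% of all windows, and TATAAA was in 4 of 17 (23.5%), against 14.2%. The beta windows held a median of 5 CG pairs (range 1 to 10), and all windows a median of 7. A match is a description of these letters and not a binding site.

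In H1.4 CFT versus WT H1.4, 9 of the 18 tested beta genes rose, 0 fell and 9 did not pass, while Pcdha4 fell and Pcdhga1 did not pass (it rose with the replicate number as a block, adjusted p = 8.57e-04). Among all 17294 genes tested, 16.7% were called higher and 19.2% lower in this comparison. H1.4 CFT libraries lay wholly above WT H1.4 libraries for 8 of the 18 beta genes and wholly below for 0. Of all 17294 genes tested, 2790 lay wholly above and 3200 wholly below. The test was edgeR's quasi-likelihood test with Benjamini-Hochberg adjustment over all genes tested, and a gene rose or fell only with an adjusted p under 0.05. Over the 18 beta genes the median log2 fold change was 0.31, with 16 positive and 2 negative values from -0.11 to 0.71, beside a median of 0.02 over all genes tested. Levels are in CPM, each library's counts divided by its TMM-scaled total, with no correction for gene length, and thus levels are compared between libraries and never between genes.

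Pcdha4, the only alpha entry with counts, fell in H1.4 CFT neurons. Its level was 119.6, 124.9, 100.5 and 99.44 CPM in H1.4 CFT libraries 1 to 4, against 144.7, 146.3, 151.7 and 158.1 CPM in WT H1.4 libraries 1 to 4 and 145.2, 142.3 and 148.1 CPM in GFP libraries 2 to 4. Every H1.4 CFT library lay below every library of both other groups, and the H1.4 CFT libraries numbered 3 and 4 were the lowest. The log2 fold change was -0.44 (SE 0.063, adjusted p = 6.51e-05) against WT H1.4 and -0.39 (SE 0.069, adjusted p = 4.65e-04) against GFP in edgeR's quasi-likelihood test. RefSeq's table lists 14 other alpha symbols as synonyms of Pcdha4 and 22 transcripts for it, so the entry may count reads of the whole alpha cluster. That table is of GRCr8 and the files of mRatBN7.2, so whether the authors' annotation merged them was not tested.

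**Figure D1:**
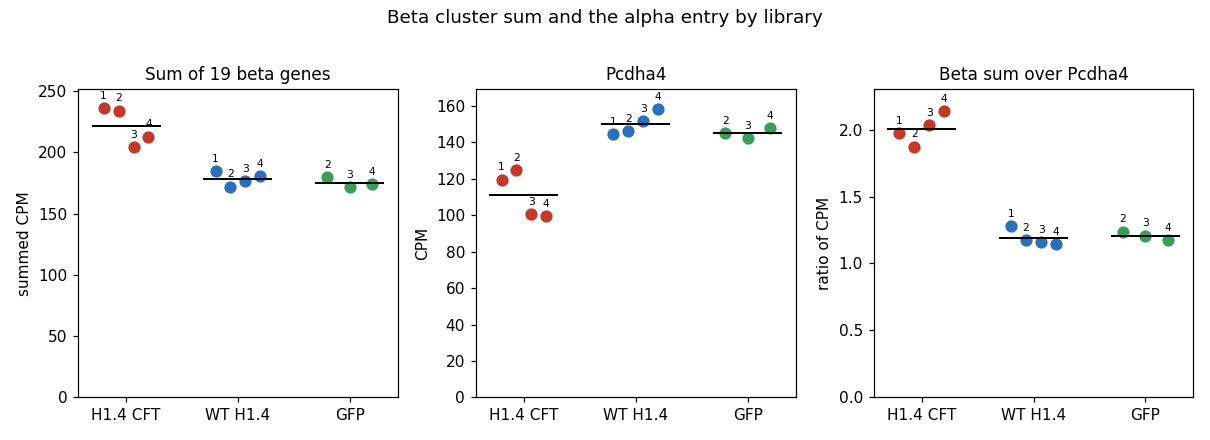
Beta cluster and alpha entry in each library. The left panel gives the summed CPM of the 19 beta genes, the middle panel the CPM of Pcdha4, and the right panel their ratio, with 1 point per library labelled by its replicate number and a bar at the group mean (H1.4 CFT n = 4, WT H1.4 n = 4, GFP n = 3). The ratio of all 4 H1.4 CFT libraries, 1.873 to 2.14, lies above that of all WT H1.4 libraries, 1.142 to 1.277, and all GFP libraries, 1.174 to 1.238.

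The beta cluster moved the other way. Its summed level was 236, 234, 204.2 and 212.8 CPM in H1.4 CFT libraries 1 to 4, against 184.8, 172, 176.3 and 180.7 CPM in WT H1.4 libraries and 179.8, 171.8 and 173.8 CPM in GFP libraries. The lowest H1.4 CFT library was above the highest library of the other groups. The ratio of the beta sum to Pcdha4, which does not depend on library scaling, was 2.005 ± 0.111 in H1.4 CFT libraries, 1.189 ± 0.0601 in WT H1.4 libraries and 1.207 ± 0.0322 in GFP libraries (SD, n = 4, 4 and 3). In the plot of cluster sums by library, no H1.4 CFT library reaches the range of the others, and WT H1.4 and GFP libraries overlap. The ratio shows unequal change of the Pcdha4 entry and the beta sum, and not that either stayed the same. Whether Pcdha4 stands for the whole alpha cluster was not tested.

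Markers of the cell types in these cultures moved between the same groups. The summed level of 9 neuron markers was 2933 to 3471 CPM in H1.4 CFT libraries. It was 4023 to 4214 CPM in WT H1.4 libraries and 4138 to 4293 CPM in GFP libraries. In H1.4 CFT versus WT H1.4, 5 of the 9 fell (Map2, Tubb3, Syt1, Rbfox3 and Slc17a6) and 2 rose (Gad1 and Gad2). Of all genes tested, 19.2% fell and 16.7% rose. Snap25 and Slc17a7 did not pass in edgeR (log2 fold changes 0.08 and 0.02, adjusted p = 0.234 and 0.844). Map2 and Tubb3 weighed most in the sum. They averaged 904.6 and 1237 CPM in H1.4 CFT and 1319 and 1662 CPM in WT H1.4. The 9 astrocyte markers summed to 2047 to 2134 CPM in H1.4 CFT libraries, 1560 to 1679 CPM in WT H1.4 libraries and 1988 to 2130 CPM in GFP libraries, and 5 of the 9 rose in H1.4 CFT versus WT H1.4. Against GFP, 6 of the 9 neuron markers fell and 0 rose, and 2 of the 9 astrocyte markers rose (Gja1 and Mlc1) and 0 fell. Of all genes tested, 16.2% fell and 13.3% rose in H1.4 CFT against GFP. In WT H1.4 against GFP, 5 of the 9 astrocyte markers fell (Gfap, Aqp4, Gja1, Mlc1 and Slc1a3) and 0 rose. In that comparison 2 of the 9 neuron markers fell (Gad1 and Gad2) and 0 rose. Of all genes tested, 0.509% fell and 0.434% rose in WT H1.4 against GFP. Within the H1.4 CFT group the neuron marker sum was 3405 and 3471 CPM in libraries 1 and 2. In libraries 3 and 4 it was 2949 and 2933 CPM, the lowest of the group. Libraries 3 and 4 were also the lowest of this group for Pcdha4. The same held for the beta sum, at 204.2 and 212.8 CPM, against 236 and 234 CPM in libraries 1 and 2. Ependymal and choroid plexus markers summed to 23.27 to 32.2 CPM in H1.4 CFT libraries, 15.98 to 18.31 CPM in WT H1.4 libraries and 15.26 to 20.15 CPM in GFP libraries, where 3 of 4 tested markers rose in H1.4 CFT versus WT H1.4. Oligodendrocyte lineage markers overlapped between the groups at 427.2 to 490.6 CPM in H1.4 CFT libraries, 435.8 to 518.1 CPM in WT H1.4 libraries and 427 to 523.7 CPM in GFP libraries. Vascular and fibroblast markers summed to 60.36 to 72.27 CPM in H1.4 CFT libraries, 57.07 to 70.91 CPM in WT H1.4 libraries and 77.07 to 84.36 CPM in GFP libraries. Microglia markers were scarce, at 8.233 to 11.8 CPM in H1.4 CFT libraries, 10.62 to 14.32 CPM in WT H1.4 libraries and 11.3 to 12.86 CPM in GFP libraries. Of 8 tested vascular and fibroblast markers, 3 rose and 1 fell in H1.4 CFT versus WT H1.4. Of 2 tested microglia markers, 1 rose (Csf1r) and 1 fell (P2ry12). No listed marker was at 0 in every library. In RNA from a whole culture, fewer cells of a type and less RNA per cell cannot be told apart, and the part of the cell makeup in the protocadherin results was not tested.

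**Figure D2:**
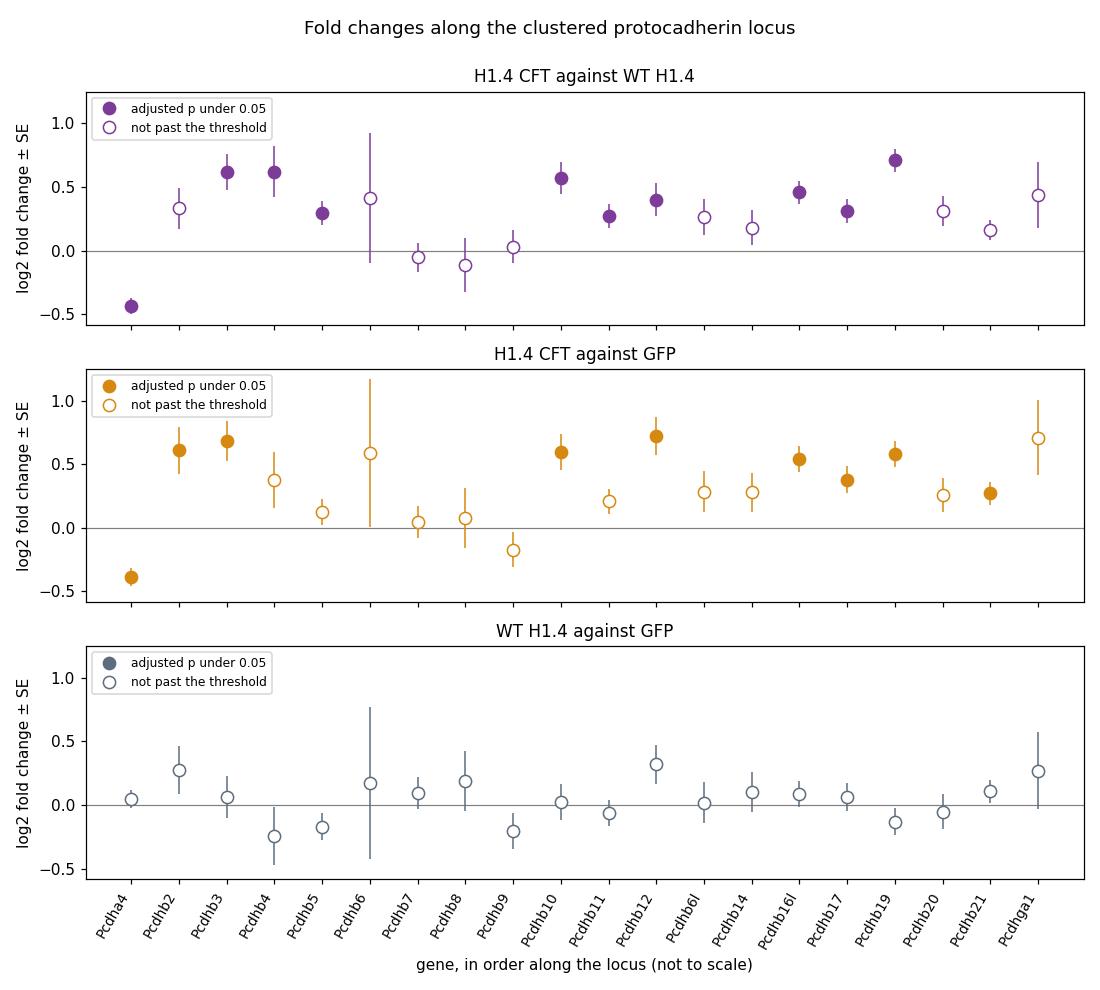
Log2 fold changes of the 20 tested genes in order along the locus (horizontal axis, not to scale), for H1.4 CFT versus WT H1.4 (top), H1.4 CFT against GFP (middle) and WT H1.4 against GFP (bottom). Points are fitted log2 fold changes, lines are ± SE, and filled points have an adjusted p under 0.05. The 9 filled beta points of the top panel lie on both sides of Pcdhb7, Pcdhb8 and Pcdhb9, whose values are near 0, and the bottom panel has 0 filled points.

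Within the beta cluster, Pcdhb19, a single-exon adhesion gene near the distal end of the cluster, had the largest fitted rise against WT H1.4. It was at 19.01, 17.22, 18 and 16.28 CPM in H1.4 CFT libraries, against 10.35, 10.85, 11.3 and 10.56 CPM in WT H1.4 libraries and 10.53, 12 and 12.74 CPM in GFP libraries. Every H1.4 CFT library was above every other library. The rise came to 1.637-fold over WT H1.4 (log2 fold change 0.71, SE 0.090) and 1.495-fold over GFP (log2 fold change 0.58, SE 0.0996), with adjusted p of 7.49e-06 and 2.15e-04.

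Pcdhb3, near the proximal end of the beta cluster, was at 12.26, 12.05, 8.972 and 7.881 CPM in H1.4 CFT libraries, against 7.584, 5.642, 6.727 and 6.675 CPM in WT H1.4 libraries and 6.684, 6.296 and 6.252 CPM in GFP libraries. The groups did not overlap, and H1.4 CFT libraries 1 and 2 were above libraries 3 and 4. The log2 fold change was 0.62 (SE 0.142, adjusted p = 0.00205) against WT H1.4 and 0.68 (SE 0.159, adjusted p = 0.00305) against GFP. Within numbers 1 and 2 alone the log2 difference of mean CPM from WT H1.4 was 0.88 and within numbers 3 and 4 it was 0.33, and the call against WT H1.4 was lost in a fit of numbers 3 and 4 alone (adjusted p = 0.108).

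Pcdhb10 was at 11.97, 13.79, 10.5 and 13.43 CPM in H1.4 CFT libraries, against 8.559, 6.872, 7.499 and 10.44 CPM in WT H1.4 libraries and 8.137, 8.31 and 8.236 CPM in GFP libraries. The lowest H1.4 CFT library was only just above WT H1.4 library 4, and the GFP libraries were close to each other. The log2 fold change was 0.57 (SE 0.125, adjusted p = 0.00139) against WT H1.4 and 0.60 (SE 0.139, adjusted p = 0.00305) against GFP. Pcdhb16l was at 32.8, 31.41, 25.55 and 28.26 CPM in H1.4 CFT libraries, against 21.99, 20.62, 24.32 and 18.87 CPM in WT H1.4 libraries and 22.23, 19.22 and 19.36 CPM in GFP libraries. Its H1.4 CFT libraries were again all above the others, by 0.46 (SE 0.090, adjusted p = 5.58e-04) on the log2 scale against WT H1.4 and 0.54 (SE 0.1001, adjusted p = 4.27e-04) against GFP.

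**Figure D3:**
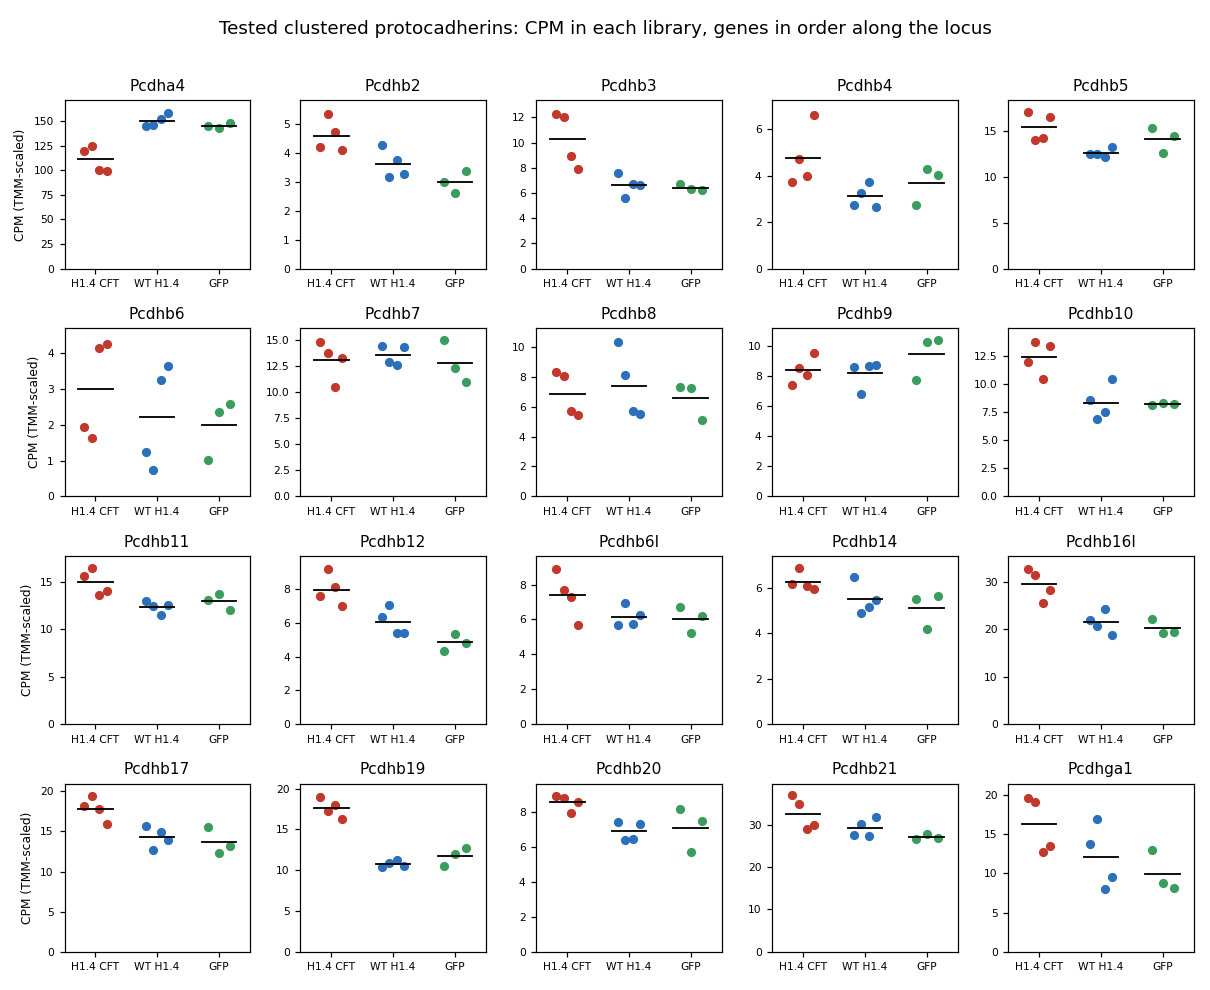
CPM of each of the 20 tested genes, with genes in order along the locus and H1.4 CFT (red), WT H1.4 (blue) and GFP (green) libraries in each panel. Each point is 1 library in the order of its replicate number and each bar is a group mean (n = 4, 4 and 3), on a linear axis from 0. In the Pcdhb19 panel all H1.4 CFT points, 16.28 to 19.01, are above all WT H1.4 points, 10.35 to 11.3, and in the Pcdha4 panel they are below.

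The other called beta genes had smaller or less even differences. Pcdhb17 was at 18.16, 19.42, 17.83 and 15.92 CPM in H1.4 CFT libraries, against 15.71, 12.66, 14.94 and 13.9 CPM in WT H1.4 and 15.55, 12.34 and 13.22 CPM in GFP libraries. It rose by 0.31 on the log2 scale against WT H1.4 (SE 0.096, adjusted p = 0.0149) and by 0.38 against GFP (SE 0.107, adjusted p = 0.0112). The groups did not overlap, but the call was lost without WT H1.4 library 2 (adjusted p = 0.0566), without GFP library 3 (0.0685) and without GFP library 4 (0.0544).

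Pcdhb5 was at 17.02, 13.96, 14.2 and 16.49 CPM in H1.4 CFT libraries, against 12.46, 12.44, 12.13 and 13.23 CPM in WT H1.4 and 15.26, 12.59 and 14.43 CPM in GFP libraries. It rose against WT H1.4 (log2 fold change 0.30, SE 0.094, adjusted p = 0.0188), whereas against GFP, whose libraries overlapped with those of H1.4 CFT, the log2 fold change was 0.13 (adjusted p = 0.385). Pcdhb11 was at 15.61, 16.49, 13.63 and 14.05 CPM in H1.4 CFT libraries, against 13, 12.51, 11.47 and 12.56 CPM in WT H1.4 and 13.08, 13.77 and 12.08 CPM in GFP libraries. It rose against WT H1.4 (log2 fold change 0.27, SE 0.092, adjusted p = 0.0267), and against GFP the value was 0.21 (adjusted p = 0.133). For each of these genes the H1.4 CFT and WT H1.4 libraries did not overlap. Single omissions ended these calls against WT H1.4: for Pcdhb5 those of WT H1.4 library 3 (adjusted p = 0.0513) and H1.4 CFT libraries 1 (0.0629) and 4 (0.0585), and for Pcdhb11 those of WT H1.4 library 3 (0.0833) and H1.4 CFT libraries 1 (0.0611) and 2 (0.0896), and so did testing all genes without the low-count filter for Pcdhb11 (0.0519).

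Pcdhb12 and Pcdhb4 passed against WT H1.4 with values that overlapped. Pcdhb12 was at 7.604, 9.175, 8.12 and 6.999 CPM in H1.4 CFT libraries, against 6.338, 7.089, 5.403 and 5.401 CPM in WT H1.4 and 4.359, 5.372 and 4.809 CPM in GFP libraries. Its log2 fold change was 0.40 against WT H1.4 (SE 0.132, adjusted p = 0.0227) and 0.72 against GFP (SE 0.151, adjusted p = 0.00129), the largest fitted beta rise against GFP. Pcdhb4 was at 3.745, 4.728, 3.975 and 6.636 CPM in H1.4 CFT libraries, against 2.763, 3.255, 3.749 and 2.67 CPM in WT H1.4 and 2.761, 4.281 and 4.028 CPM in GFP libraries. H1.4 CFT library 4 was well above the rest, the log2 fold change against WT H1.4 was 0.62 (SE 0.201, adjusted p = 0.0201), and the adjusted p without that library was 0.115. The Pcdhb4 call was also lost without WT H1.4 library 1 (0.0607) or 4 (0.0637), and the Pcdhb12 call against WT H1.4 without WT H1.4 library 3 (0.0722) or 4 (0.0734) or H1.4 CFT library 2 (0.0795).

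In H1.4 CFT against GFP, 8 of 18 beta genes rose and 0 fell, while Pcdha4 fell and Pcdhga1 did not pass (it rose with the replicate number as a block, adjusted p = 2.62e-04). Of all genes tested, 13.3% were called higher and 16.2% lower. H1.4 CFT libraries lay wholly above GFP libraries for 9 of the 18 beta genes and wholly below for 0. Of all 17294 genes tested, 2943 lay wholly above and 3201 wholly below. The median log2 fold change of the beta genes was 0.33, with 17 positive and 1 negative value, beside 0.01 over all genes. This comparison uses the same H1.4 CFT libraries as the one against WT H1.4 and is not independent of it. Its calls were Pcdhb12, Pcdhb3, Pcdhb2, Pcdhb10, Pcdhb19, Pcdhb16l, Pcdhb17 and Pcdhb21. Without GFP library 3 the number was 5, since Pcdhb2, Pcdhb17 and Pcdhb21 no longer passed.

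Pcdhb2, which did not pass against WT H1.4 (log2 fold change 0.33, adjusted p = 0.114), was at 4.199, 5.347, 4.713 and 4.096 CPM in H1.4 CFT libraries, against 4.279, 3.183, 3.749 and 3.277 CPM in WT H1.4 and 2.979, 2.602 and 3.366 CPM in GFP libraries. Its H1.4 CFT and GFP libraries did not overlap, and the log2 fold change between them was 0.61 (SE 0.184, adjusted p = 0.0168; 0.0787 without GFP library 3). Pcdhb21, the beta entry with the most counts, was at 36.94, 34.79, 28.9 and 29.86 CPM in H1.4 CFT libraries, against 27.46, 30.09, 27.29 and 31.8 CPM in WT H1.4 and 26.59, 27.7 and 26.87 CPM in GFP libraries. It rose against GFP by 0.27 (SE 0.088, adjusted p = 0.0249), and against WT H1.4, with overlapping libraries, the value was 0.16 (adjusted p = 0.115). Its call against GFP was lost without H1.4 CFT library 1 (0.08) or 2 (0.06) and without GFP library 2 (0.0743), 3 (0.0543) or 4 (0.0776), and in a fit of numbers 3 and 4 alone (0.364).

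Other beta genes did not pass in either comparison with H1.4 CFT. Pcdhb20 was at 7.95 to 8.91 CPM in H1.4 CFT libraries, against 6.366 to 7.421 CPM in WT H1.4 libraries and 5.708 to 8.137 CPM in GFP libraries. H1.4 CFT and WT H1.4 libraries did not overlap, with a log2 fold change of 0.31 (SE 0.121, adjusted p = 0.0508). Pcdhb20 passed with the replicate number as a block (0.0413), in limma-voom (0.0439) and in a fit of only the groups compared (0.0349). It also passed with the filter of 5 CPM in 3 libraries (0.0373). With single libraries left out it passed in 2 of 11 fits (adjusted p from 0.0416 to 0.121). Pcdhb14 and Pcdhb6l had log2 fold changes of 0.18 (adjusted p = 0.324) and 0.27 (adjusted p = 0.154) against WT H1.4, and of 0.28 each against GFP (adjusted p = 0.178 and 0.188). The neighbours Pcdhb7, Pcdhb8 and Pcdhb9 had the beta values nearest to 0 against WT H1.4, at -0.05, -0.11 and 0.03, with adjusted p of 0.756, 0.709 and 0.865. Pcdhb9 was at 7.434 to 9.592 CPM in H1.4 CFT libraries, against 6.8 to 8.738 CPM in WT H1.4 libraries and 7.774 to 10.4 CPM in GFP libraries, with all groups overlapping. Against GFP, Pcdhb9 was the beta gene with a negative value, -0.17 (adjusted p = 0.373). Beta genes are close in sequence, and how reads that fit several of them were counted is not given in the sources used here, so the split of counts between neighbours is uncertain.

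In WT H1.4 against GFP, 0 of 20 genes were called higher and 0 lower, beside 0.434% and 0.509% of all genes tested. No member had an unadjusted p under 0.05 in edgeR, and DESeq2 and limma-voom also made 0 calls. The log2 fold changes ran from -0.25 to 0.32 with a median of 0.06 and a median SE of 0.141, so changes of this size were not detectable here. Pcdhb12 was the only tested member whose libraries did not overlap. It was at 5.401 to 7.089 CPM in WT H1.4 and 4.359 to 5.372 CPM in GFP libraries (log2 fold change 0.32, SE 0.156, adjusted p = 0.441). Among all 17294 genes tested, 1087 were without overlap and higher in WT H1.4, and 1027 were without overlap and lower. Pcdha4 had a log2 fold change of 0.05 (adjusted p = 0.85) and Pcdhb19 one of -0.13 (adjusted p = 0.693).

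The gamma cluster was represented by Pcdhga1, whose variable exon lies first in the cluster. It was at 19.64, 19.14, 12.66 and 13.53 CPM in H1.4 CFT libraries, against 13.76, 16.86, 8.05 and 9.588 CPM in WT H1.4 and 13, 8.73 and 8.115 CPM in GFP libraries. In every group the libraries numbered 1 and 2 were above those numbered 3 and 4, and at each number H1.4 CFT was the highest. The log2 fold change did not pass against WT H1.4 (0.44, SE 0.259, adjusted p = 0.222) or against GFP (0.71, SE 0.294, adjusted p = 0.102). With the replicate number as a block it was 0.45 (adjusted p = 8.57e-04) against WT H1.4 and 0.63 (adjusted p = 2.62e-04) against GFP. Against GFP, Pcdhga1 also passed in limma-voom (adjusted p = 0.0372) and in a fit of only the groups compared (0.0346). With single libraries left out it did not pass against GFP (adjusted p from 0.0584 to 0.284). Within numbers 1 and 2 alone the fitted value against WT H1.4 was 0.36 (adjusted p = 0.0133) and within numbers 3 and 4 it was 0.57 (adjusted p = 5.97e-04).

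The other 15 gamma entries were listed at 0 in all libraries. In the GRCr8 table the start of every one of these 15 lies inside the span of Pcdhga1, whose transcript runs to the shared constant exons. Of 15088 protein-coding symbols with a strand in that table, 136 lie inside another gene of the same strand, and 80 of these (58.8%) were at 0 in every library, against 1105 of the 14952 others (7.39%). Of 24 that also end where the longer gene ends, 19 (79.2%) were at 0. Both the 136 and the 24 include gamma entries at 0, so these shares are not separate from the entries described. Outside the gamma cluster there were 13 such genes, of which 8 were at 0, among them Snrpn, a splicing-factor gene known to be expressed in brain, and 6 variants of Ugt1a, which share their last exons. The other 5 had counts, among them Rnf4 with 24226 and Cend1 with 8190 in all libraries together. Whether Pcdhga1 holds reads of the constant exons of the whole gamma cluster, and why the other entries are at 0, was not tested, so these entries are given as listed at 0 and not as a measure of their isoforms.

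The replicate numbers divided the libraries in the same way in all groups, and 3 of the 20 tested genes followed this division in every group. Within H1.4 CFT alone, numbers 1 and 2 also lay wholly above numbers 3 and 4 for other members. Among these were Pcdha4, Pcdhb3, Pcdhb16l, Pcdhb17 and Pcdhb21. The share of all genes tested that did so within H1.4 CFT was not computed. Between libraries of 1 group, the median absolute log2 difference over genes was 0.0904 to 0.109 within the pairs 1 and 2 or 3 and 4, and 0.120 to 0.162 across them. The labels name no batch behind these numbers. Pcdhb6 was at 1.929, 1.632, 4.145 and 4.251 CPM in H1.4 CFT libraries 1 to 4, at 1.246, 0.7234, 3.253 and 3.641 CPM in WT H1.4 libraries 1 to 4 and at 1.017, 2.35 and 2.585 CPM in GFP libraries 2 to 4. Numbers 1 and 2 were thus lower than numbers 3 and 4 in each group, by 1.24, 1.81 and 1.28 on the log2 scale in H1.4 CFT, WT H1.4 and GFP. Pcdhb8 was higher in numbers 1 and 2, at 8.285, 8.049, 5.678 and 5.444 CPM in H1.4 CFT, 10.35, 8.102, 5.679 and 5.522 CPM in WT H1.4 and 7.338, 7.219 and 5.11 CPM in GFP libraries, in number order. With Pcdhga1 these made 3 of 20 genes (15%) that did not overlap between the number pairs in all 3 groups, beside 1669 of 17294 genes tested (9.65%). In GFP, numbers 1 and 2 were library 2 alone.

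**Figure D4:**
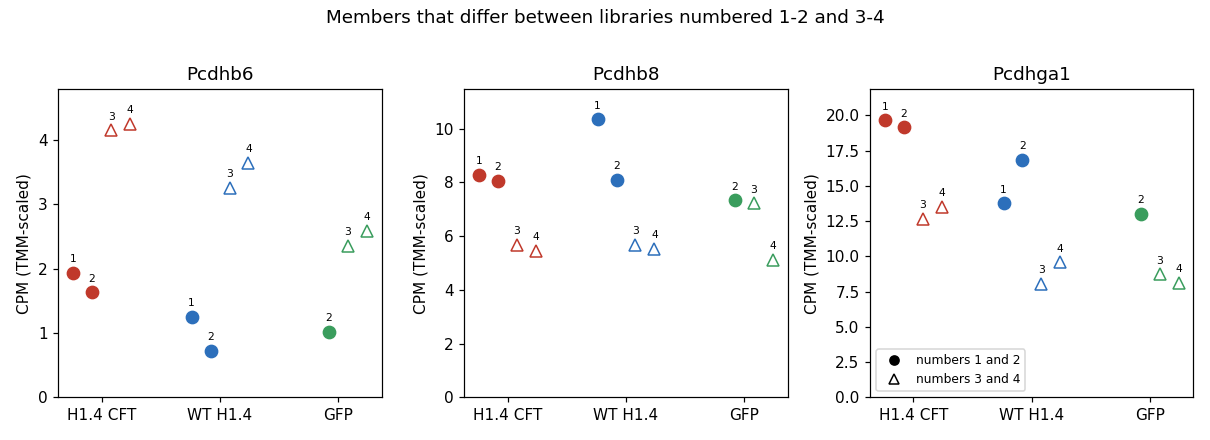
The 3 tested members that separated libraries by replicate number in every group. Panels give CPM of Pcdhb6, Pcdhb8 and Pcdhga1 on linear axes from 0, with 1 point per library, labelled by number, filled for numbers 1 and 2 and open for numbers 3 and 4. Pcdhb6 is lower and Pcdhb8 and Pcdhga1 are higher in the filled points of every group.

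Pcdhb6 was the member with the most spread between libraries, with a biological coefficient of variation (BCV, the spread between replicates beyond counting error) of 49.9%. The median was 10.01% over the beta genes and 10.1% over 1739 genes within 0.5 log2 CPM of the median beta level. Genes at the level of Pcdhb6 were not compared. Pcdhb6 had the lowest group means of the tested beta genes, at 2.99, 2.216 and 1.984 CPM in H1.4 CFT, WT H1.4 and GFP. Its log2 fold changes were 0.42 against WT H1.4 (SE 0.510, adjusted p = 0.567) and 0.59 against GFP (SE 0.579, adjusted p = 0.496). With the replicate block the value against GFP was 0.77 (adjusted p = 0.0167) and that against WT H1.4 was 0.47 (adjusted p = 0.0726). Pcdhb6 was at least 2-fold apart between the number pairs in all 3 groups, which 60 of 17294 genes (0.347%) were.

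The beta difference was present within both number pairs, with unequal size. The summed beta level of H1.4 CFT over WT H1.4 was 0.40 on the log2 scale within numbers 1 and 2 and 0.22 within numbers 3 and 4. H1.4 CFT was above WT H1.4 for 17 of 18 beta genes within numbers 1 and 2. Within numbers 3 and 4 this was so for 15 of 18, and 16 had the same sign in both. The shares of all genes tested with these signs were not computed. The 18 genes were read from the same libraries and are not separate observations. Each pair fitted alone has 2 H1.4 CFT and 2 WT H1.4 libraries. In the fit of numbers 1 and 2, Pcdhb12 (adjusted p = 0.127) and Pcdhb4 (0.101) did not pass against WT H1.4, and Pcdhb21 did (log2 fold change 0.32, adjusted p = 0.00196). In the fit of numbers 3 and 4, Pcdhb3 (adjusted p = 0.108), Pcdhb17 (0.134), Pcdhb5 (0.0694) and Pcdhb11 (0.212) did not pass against WT H1.4, and neither did Pcdhb2 (0.0733) against GFP. For Pcdha4 the order of the pairs was the other way, with log2 differences of mean CPM of -0.25 within numbers 1 and 2 and -0.63 within numbers 3 and 4.

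Protocadherins outside the clusters are adhesion genes that each have a locus of their own. Of 12 listed, 11 were tested (Pcdh12 had 38 counts in all), and 0 rose and 4 fell in H1.4 CFT versus WT H1.4 (16.7% and 19.2% of all genes tested). Pcdh20 averaged 30.87 CPM in H1.4 CFT and 40.73 CPM in WT H1.4 (log2 fold change -0.40, SE 0.077, adjusted p = 4.55e-04). Pcdh1 averaged 239.7 CPM in H1.4 CFT and 332.3 CPM in WT H1.4 (log2 fold change -0.47, SE 0.086, adjusted p = 0.00133). Pcdh9 and Pcdh17 fell by 0.38 (adjusted p = 0.00309) and 0.45 on the log2 scale (adjusted p = 0.00759). The median over the 11 was -0.08. In H1.4 CFT against GFP 3 rose and 6 fell (13.3% and 16.2% of all genes tested). In WT H1.4 against GFP Pcdh18 rose (log2 fold change 0.42, adjusted p = 0.0201) and Pcdh11x fell (log2 fold change -0.69, adjusted p = 0.0195). Of all genes tested, 0.434% rose and 0.509% fell there.

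Among 27 tested regulators of the clusters, 6 rose and 3 fell in H1.4 CFT versus WT H1.4 (16.7% and 19.2% of all genes tested), 6 rose and 0 fell against GFP (13.3% and 16.2% of all genes tested), and 0 changed in WT H1.4 against GFP. Mau2, part of the cohesin loader, averaged 142.5 CPM in H1.4 CFT and 113.8 CPM in WT H1.4 (log2 fold change 0.32, SE 0.041, adjusted p = 6.41e-06). Stag1, a cohesin subunit, averaged 63.98 CPM in H1.4 CFT and 51.13 CPM in WT H1.4 (log2 fold change 0.32, SE 0.057, adjusted p = 2.16e-04). Ehmt1 and Ehmt2, which place methyl groups on lysine of histone H3, rose by 0.17 (adjusted p = 0.0019) and 0.24 on the log2 scale (adjusted p = 0.00197). Ctcf, the factor that binds the promoters and the enhancers, averaged 92.28 CPM in H1.4 CFT libraries, 92.13 CPM in WT H1.4 libraries and 90.98 CPM in GFP libraries, with a log2 fold change of 0.0029 against WT H1.4 (SE 0.054, adjusted p = 0.973). The 3 that fell were Tet1, which oxidises methylated DNA (log2 fold change -0.38, adjusted p = 0.00759), Smchd1, known in mouse to silence clustered protocadherins (-0.18, adjusted p = 0.0117), and Pds5a, a cohesin-associated protein (-0.12, adjusted p = 0.0316). Suv39h1 had 7 counts in all and was not tested.

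Partners of protocadherin proteins (proteases that cleave them, kinases and the WAVE complex at their tails, and synaptic adhesion partners) made up a further list. Of 25 tested, 3 rose and 10 fell in H1.4 CFT versus WT H1.4 (16.7% and 19.2% of all genes tested), 2 rose and 10 fell against GFP (13.3% and 16.2%), and 0 changed in WT H1.4 against GFP. Nlgn1, a postsynaptic adhesion protein, averaged 85.86 CPM in H1.4 CFT and 116 CPM in WT H1.4 (log2 fold change -0.43, SE 0.057, adjusted p = 1.16e-05). Wasf1, the actin-regulating core of the WAVE complex, averaged 168.8 CPM in H1.4 CFT and 230 CPM in WT H1.4 (log2 fold change -0.45, SE 0.060, adjusted p = 2.61e-05). Nlgn2, the neuroligin of inhibitory synapses, and Cdh2, N-cadherin, fell by 0.28 (adjusted p = 9.03e-05) and 0.24 on the log2 scale (adjusted p = 1.06e-04). In the same comparison 5 of 9 neuron markers fell and 2 rose, and their part in these values was not tested.

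A further list held genes around the clusters on the same chromosome. Of 22 tested, 4 rose and 6 fell in H1.4 CFT versus WT H1.4 (16.7% and 19.2% of all genes tested), 3 rose and 5 fell against GFP (13.3% and 16.2%), and 0 changed in WT H1.4 against GFP. Ndfip1, an adaptor of ubiquitin ligases, averaged 323.6 CPM in H1.4 CFT and 379.8 CPM in WT H1.4 (log2 fold change -0.23, SE 0.041, adjusted p = 2.41e-04). Rell2 fell by 0.33 on the log2 scale (adjusted p = 9.98e-04), Pcdh1, also in the list of protocadherins outside the clusters, fell as given above, and Gnpda1, an enzyme of amino sugar breakdown, rose by 0.36 on the log2 scale (SE 0.086, adjusted p = 0.00303). Their median log2 fold change was -0.03, beside 0.31 for the beta genes between them and 0.02 for all genes tested.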

How the data were processed

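The 11 libraries hold polyadenylated RNA of primary rat neurons (hippocampus, day 7 in vitro). The deposited values are raw read counts per gene, 1 file per library with 42172 gene entries and 5 summary entries, which stayed out of library sizes and tests and took 53.1% to 54.1% of the reads. The submitters' processing notes name STAR 2.7.2b, HTSeq 0.10.0 and the build mRatBN7.2. The annotation release, the strand setting and the rule for reads that overlap several genes are not given in the sources used here, and between 0.396% and 0.430% of reads were counted as ambiguous.

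The 11 libraries entered 1 model in edgeR 4.0.16 (R 4.3.3), scaled by TMM, with group as its term, and were tested by the robust quasi-likelihood method. Genes passed filterByExpr by group (minimum count 10, minimum total 15), which left 17294 genes with 8 residual degrees of freedom. The Benjamini-Hochberg adjustment ran over all of them, with a threshold of 0.05. The fit was tested on simulated data. Alternatives were RLE scaling, DESeq2 1.42.0, limma-voom (limma 3.58.1), no filter, a filter of 5 CPM in 3 libraries, the replicate number as a block, fits restricted to the groups compared and the omission of each library. Fits by number pair were added after seeing the data.

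Residual values of equal replicate numbers correlated at 0.149, 0.174, 0.192 and 0.142 for H1.4 CFT with WT H1.4 (numbers 1 to 4), at 0.255, 0.124 and 0.163 for H1.4 CFT with GFP (numbers 2 to 4), and at 0.206, 0.113 and 0.0927 for WT H1.4 with GFP. By a limit of 0.1 for every pair, the numbers pair the libraries in the comparisons with H1.4 CFT and not in WT H1.4 against GFP. This pairing comes from the data and not from the labels. Some libraries correlated more with a library of another number (H1.4 CFT 1 with WT H1.4 2, H1.4 CFT 4 with WT H1.4 3 and H1.4 CFT 3 with GFP 4), in each case within the pairs 1 and 2 or 3 and 4.

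The members and the gene lists were chosen with earlier results of these data known. Named by rule were the C-type genes, the called members whose libraries did not overlap, the entry with the highest mean CPM in each class, and up to 4 called genes of each other list by smallest p. The other members are named because the report accounts for each of them, and Ctcf, Tet1, Smchd1, Pds5a, Pcdh18 and Pcdh11x were named after their values were seen. Promoter sequences come from RefSeq's table of GRCr8, which matched 32 member genes. A comparison of protein sequences was planned and not run, since no protein table was used here.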

Additional observations from a re-analysis of the deposited data

Results flagged for a closer look

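Pcdhb9, a beta gene that did not pass in any comparison, had 6.8 CPM in WT H1.4 library 2, far from the other WT H1.4 libraries, which lay between 8.613 and 8.738 CPM. The gap to the nearest of the others was 0.935 of the range of the group. In all, 40 groups of 4 libraries were looked at in this way and 1 stood out, where chance alone gives about 1 in 20.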

How the results depend on the processing

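The number of clustered protocadherins higher in H1.4 CFT versus WT H1.4, 9 with all libraries, ran from 6 to 10 when single libraries were left out, and against GFP, 8 with all libraries, from 5 to 8, with 5 without GFP replicate 3. The number lower was 1 (Pcdha4) in each of these fits, and WT H1.4 against GFP gave 0 in every alternative. With the replicate block the numbers higher were 11 against WT H1.4 and 10 against GFP, and the block changed no call of a tested member other than those of Pcdhga1, Pcdhb20 and Pcdhb6 given above. In WT H1.4 against GFP, where equal numbers did not pair the libraries by the limit used, the block gave 0 calls. RLE scaling, DESeq2 and limma-voom gave 9, 9 and 10 higher against WT H1.4, and 8, 8 and 9 against GFP. Over all alternatives of single genes, 881 kept direction and side of the threshold, 22 newly passed, 30 no longer passed and 20 changed sign, and the causes were not tested.

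Signs changed for genes near 0 that passed in neither version. In H1.4 CFT versus WT H1.4 the log2 fold change of Pcdhb21 was -0.0088 in numbers 3 and 4 alone and that of Pcdhb7 0.0623 in numbers 1 and 2 alone. With single libraries left out, Pcdhb7 ran from -0.1143 to 0.0403, Pcdhb8 from -0.2326 to 0.099 and Pcdhb9 from -0.0449 to 0.088. In H1.4 CFT against GFP, Pcdhb7 was -0.0017 and Pcdhb8 -0.0764 with the replicate block, and Pcdhb8 was -0.0244 with the number pair as a term and -0.1244 in numbers 3 and 4 alone. With single libraries left out, Pcdhb7 ran from -0.0652 to 0.175 and Pcdhb8 from -0.0889 to 0.1767. In WT H1.4 against GFP, Pcdhb8 was -0.1086 in numbers 3 and 4 alone and ran from -0.0247 to 0.307 with single libraries left out, and Pcdhb6 ran from -0.1586 to 0.4397. Beta genes with counts near the lowest of 10 per library limit the size of change that can be seen.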
